A study of Mus musculus with 59 samples.

Results

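The regions described here are the 5 kb windows of the mouse genome (mm10) that overlap an annotated microRNA gene, read in chromatin immunoprecipitation (ChIP) of 4 proteins of RNA processing in mouse embryonic stem cells. A window was a member when it lay on chromosomes 1 to 19 or X and overlapped a gene whose symbol begins with Mir and a digit or with Mirlet7; the Mir290a to Mir295 and Mir17hg windows, 4 in number, were left out. The rule used annotation alone and no measured value. It gave 1117 windows of 526765, at 908 separate loci, holding 1177 microRNA genes. Of the windows, 886 held 1 hairpin gene, 97 held more than 1 and at most 9, and 134 held a stretch of a microRNA host transcript (a long RNA annotated as Mir22hg or Mir99ahg, for example) without a hairpin. The hairpin lay inside another annotated gene in 776 windows and outside any in 207.

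MicroRNAs are cut from long primary transcripts. In the nucleus the Microprocessor, made of the ribonuclease Drosha and its RNA-binding partner DGCR8, releases a hairpin while the transcript is still close to its gene; in the cytoplasm Dicer cuts the hairpin to the mature microRNA. METTL3 is the catalytic subunit of the enzyme that methylates adenosine (m6A) in nascent RNA. Heat shock moves transcription to a small set of stress genes.

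The cells were a hybrid line of 129 and C57Bl6 origin, kept without feeders on gelatin with LIF. For ChIP the cells carried the biotin ligase BirA at Rosa26 and a FLAG/Avi tag on METTL3, DGCR8, Drosha or Dicer, so that the tagged protein could be pulled down on streptavidin. METTL3 was precipitated from 2 clones, with 2 precipitates and 1 input of each. DGCR8 and METTL3 (libraries named H4 and H5) were precipitated from cells heated to 42 °C for 1 h and from cells kept at 37 °C, with inputs at 37 °C. H4 and H5 were taken as separate lines, which the labels do not state. DGCR8 was precipitated once from tagged cells without METTL3 (METTL3KO) and once from tagged cells with METTL3 (WT), which gave the input of that set. DGCR8 was also taken after formaldehyde alone (FA) and after FA plus disuccinimidyl glutarate (DSG), which fixes protein to protein; Drosha and Dicer were taken after DSG, and untagged BirA cells gave their input. The FA counts come from a column named for DGCR8 without a fixation, the only one left for that sample. RNA came from floxed DGCR8 and floxed Drosha lines, in which 4-hydroxytamoxifen (4OHT, 0.5 µM) switches on Cre, at 24 and 48 h, with 2 libraries of 4OHT cells and 2 of control cells at each time. The floxed lines also had 96 h libraries, with 1 of 4OHT cells in the Drosha line. Further RNA came from parental cells and METTL3 knockout lines, at 37 °C and after 42 °C for 1 h. It was used for Mettl3 RNA, cell markers and expression classes. The titles do not link these knockout lines to the METTL3KO cells of the ChIP. The sources do not say that libraries of a group came from separate cultures, so the p-values measure the spread between these libraries, which may be technical. In the METTL3 clone, METTL3 heat and floxed RNA sets some titles and source names give different conditions, and the treatment lists vary between records; titles and column names were followed, and the lists on the floxed records match the titles. No streptavidin pulldown from untagged cells was analysed here.

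The mature sequences below are those of some of the loci the results turn on, grouped by shared seed. They come from windows named for high DGCR8, Drosha or METTL3 signal or for low DGCR8 without METTL3. Not every such window is printed. The Mir106b cluster is printed for the seeds it shares with the Mir106a cluster. They are RefSeq sequences (GRCm38.p6), 5′ to 3′, with the seed (bases 2 to 8) in capitals. The let-7 cluster on chromosome 13 and the Mir15a and Mir16-1 pair on chromosome 14 each carry 1 seed.
let-7a-5p: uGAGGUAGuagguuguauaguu
let-7f-5p: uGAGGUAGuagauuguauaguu
let-7d-5p: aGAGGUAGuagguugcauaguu
miR-15a-5p: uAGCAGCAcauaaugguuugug
miR-16-5p: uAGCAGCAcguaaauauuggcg
The Mir106a cluster on the X chromosome is a paralog of the miR-17-92 cluster and carries more than 1 seed; 2 of its seeds recur in the Mir106b cluster on chromosome 5.
miR-106a-5p: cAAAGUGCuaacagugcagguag
miR-20b-5p: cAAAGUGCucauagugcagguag
miR-106b-5p: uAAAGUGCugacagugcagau
miR-92a-3p: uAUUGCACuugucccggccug
miR-363-3p: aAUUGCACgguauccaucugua
miR-25-3p: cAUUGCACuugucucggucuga
The last DGCR8 loci printed carry seeds that differ from those above and from one another. The chromosome 6 cluster of Mir182, Mir96 and Mir183, the pair of Mir200a and Mir429 on chromosome 4, Mir21a on chromosome 11 and Mir148a on chromosome 6 are among them.
miR-21a-5p: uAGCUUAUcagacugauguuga
miR-148a-3p: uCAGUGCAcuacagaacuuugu
miR-182-5p: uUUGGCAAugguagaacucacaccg
miR-96-5p: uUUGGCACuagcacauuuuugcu
miR-183-5p: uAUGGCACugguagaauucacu
miR-200a-3p: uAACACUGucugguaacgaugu
miR-429-3p: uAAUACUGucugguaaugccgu
The highest METTL3 ratios lay at Mir1192 on chromosome 19 and Mir7091 on the X chromosome.
miR-1192: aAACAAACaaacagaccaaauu
miR-7091-5p: gUAGGGGUgauagauuccauggc

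ChIP libraries held 13.7 to 86.1 and floxed RNA libraries 9.58 to 12.6, in units of 1e+06 counts. Input was uneven over the members: their median input was 2.30 times the median window in the METTL3 set, 3.18 times in the DGCR8 crosslinking set and 2.07 times in the knockout set. Input above 5 times the median window was seen in 36.2% of members and 6.64% of all windows in the crosslinking set, and windows above that level there are called high-input windows below. The H4 input at 37 °C had a median of 42 counts per window, against 70 in the H5 input of similar total. Mettl3 RNA was 21.2 to 44.6 CPM (counts scaled to a library total of 1e+06) in the METTL3 knockout lines at 37 °C and 65.0 to 70.9 CPM in parental cells. All 10 stem cell markers were at 1 CPM or more in every RNA library, as were 1 of 6 feeder markers and 1 of 5 markers of differentiated cells. In the floxed libraries alone, Gata6 was at 3.17 to 10.2, Gata4 at 4.39 to 12.9 and Pax6 at 3.82 to 8.88 CPM. The differentiation marker T was at 0 to 17.6 CPM there, Neurog2 at 0 to 0.0968 CPM and the feeder marker Col1a1 at 0.280 to 38.9 CPM.

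METTL3 was above input at a small number of microRNA windows, led by Mir1192 and Mir7091, and below input at many more. In the fit over the 4 precipitates and 2 inputs, 50 of 1101 members tested were higher in the precipitates (4.14% of all windows were) and 430 were lower (12.5% of all windows), with the quasi-likelihood test of edgeR at an adjusted p under 0.05. The median log2 difference was -0.26 over the members and 0.05 over all windows. With library totals in place of TMM scaling the median of all windows moved to 0.26 and the split to 148 higher and 367 lower. Without the clone 1 input 20 members were called higher, and without the clone 2 input 25. Input was above 5 times the median window in 28.3% of members and 3.51% of all windows of this set. There 52.8% of members and 49.3% of all windows were past 2-fold lower in the summed precipitates than in the summed inputs. Between 2 and 5 times the median input, 2.68% of members and 3.51% of all windows were past 2-fold lower. Past 2-fold higher there were 2.35% and 0.619%. The calls themselves were not matched for input level.

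The Mir1192 window (chr19:23145001-23150000) lies in Klf9, a zinc finger transcription factor gene. It held 12.3 and 16.3 CPM in the clone 1 precipitates and 17.4 and 11.5 CPM in those of clone 2, against 3.10 and 3.43 CPM in the inputs. All 4 precipitates lay above both inputs, with a log2 difference of 1.93 ± 0.23 (SE) and an adjusted p of 2.24e-12 by the edgeR test. The Mir7091 window (chrX:74270001-74275000) lies in Dnase1l1 and also overlaps Rpl10, a ribosomal protein gene. It held 5.09 and 5.25 CPM in clone 1 precipitates and 8.06 and 5.20 CPM in clone 2 precipitates, against 1.48 and 1.60 CPM in the inputs. The groups did not overlap, and the log2 difference was 1.73 ± 0.24 (edgeR adjusted p 8.41e-10). At both windows DGCR8 differed less from input: the fit across DGCR8 sets gave 0.24 at Mir1192 (edgeR adjusted p 0.58) and 1.18 at Mir7091 (edgeR adjusted p 0.066).

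In the heat set, whose H4 and H5 precipitates were other libraries, METTL3 at 37 °C was above input at 123 of 1109 members (20.8% of all windows) and below it at 384 (19% of all windows). The median log2 difference was -0.74 over the members and 0.12 over all windows. With H4 or H5 as replicate block the counts were 156 higher and 470 lower. Library totals alone gave 177 higher and 273 lower, with a median of 0.56 over all windows. The calls rested on single libraries: 63 and 109 members were called higher and lower without the H4 precipitate, 65 and 93 without the H5 precipitate, 99 and 270 without the H4 input, and 165 and 583 without the H5 input. Mir1192 held 19.9 and 30.8 CPM in the 37 °C precipitates, against 7.65 and 6.48 CPM in their inputs (7.69 times the median window together), a log2 difference of 1.34 ± 0.73 that did not pass (edgeR adjusted p 0.14). The let-7 cluster on chromosome 13 was called in both METTL3 sets. Its window (chr13:48535001-48540000) held 2.14, 2.01, 2.53 and 2.32 CPM in the clone precipitates, against 0.926 and 0.947 CPM in their inputs. The log2 difference was 1.05 ± 0.28 (edgeR adjusted p 0.0024), and the call was lost without the clone 1 input. In the heat set the same window held 4.34 and 3.72 CPM in the 37 °C precipitates and 0.328 and 0.548 CPM in the inputs (log2 difference 2.77, edgeR adjusted p 9.4e-05). Mir882, called at 1.54 in the clones (edgeR adjusted p 1.22e-05), was at -0.40 in the heat set (edgeR adjusted p 0.35).

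Leaving out high-input windows, DGCR8 was highest at well-known microRNA loci: the let-7 cluster of chromosome 13, Mir21a, Mir30b, Mir15a with Mir16-1, and Mir148a. With the 4 precipitates of unheated cells that have METTL3 (DSG, FA, WT and 37 °C) set against the 3 inputs of their sets and the set as a block, 106 of 1106 members tested were higher in the precipitates, at 89 loci. Of all windows, 13.7% were higher. Lower calls came to 290 members (13.9% of all windows), and the median log2 difference was -0.26 over the members and 0.05 over all windows. Library totals alone gave 159 higher and 172 lower. Without the set as a block no window of the genome passed, let-7, Mir21a and Mir148a included, although 291 members had an unadjusted p under 0.05 in edgeR. No window passed either when the DSG precipitate or the input of its set was left out, although 420 and 391 members then had an unadjusted p under 0.05.

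At the let-7 cluster DGCR8 held 20.2 CPM in the DSG, 1.81 in the FA, 6.53 in the WT and 42.4 in the 37 °C precipitate, against 0.498, 1.07 and 0.484 CPM in the DGCR8 crosslinking, WT and 37 °C inputs. Every precipitate was above every input. The log2 difference was 4.39 ± 0.84 (edgeR adjusted p 0.014). No other annotated gene overlaps that window.

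Mir21a lies in Vmp1 (chr11:86580001-86585000), a gene of autophagy and vesicle traffic; miR-21 is best known for its high level in tumours and injured tissue. The window held 68.0, 9.18, 49.5 and 132 CPM in the DSG, FA, WT and 37 °C precipitates, against 2.33, 5.26 and 5.19 CPM in the inputs. All 4 lay above all inputs, and the log2 difference was 3.83 ± 0.68 (edgeR adjusted p 0.014). Mir148a (chr6:51265001-51270000) held 23.2, 4.09, 15.0 and 177 CPM in the same order, against 3.28, 3.89 and 3.58 CPM in the inputs. Its FA precipitate was close to its inputs and the 37 °C precipitate far above them (log2 difference 2.76 ± 0.79, edgeR adjusted p 0.024); this call was also lost without the WT input. The log2 difference was 3.19 at Mir30b (chr15:68335001-68340000) and 2.90 at Mir15a with Mir16-1, which lies in the non-coding gene Dleu2 (chr14:61630001-61635000). Both had an edgeR adjusted p of 0.014. Of the high-input windows, the Mir182 cluster was at 3.29 and Mir324 at 2.91 (edgeR adjusted p 0.018 and 0.015). The other 3 windows among the 8 highest without high input, with Mir741, Mir743 and Mir883b on the X chromosome, had input of 0.0612 to 0.102 times the median window in the crosslinking set.

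**Figure D1:**
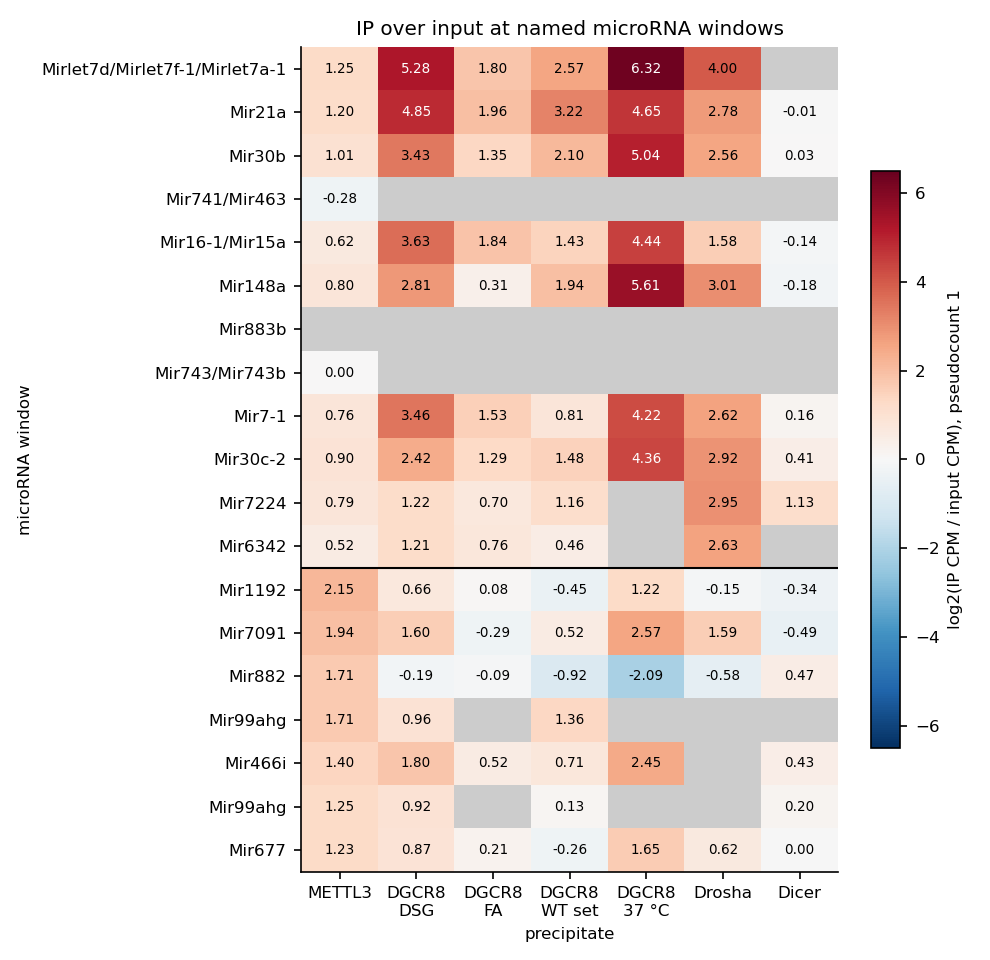
Log2 ratio of precipitate over input at the named microRNA windows (rows) in each precipitate (columns), with the windows chosen for high DGCR8 or Drosha above the line and those for high METTL3 below it; grey cells had under 50 counts in the pair. The let-7 cluster, Mir21a and Mir30b are above 1 in the DGCR8 and Drosha columns, as is Mir148a except after FA (0.31), and all 4 are near 0 or grey in the Dicer column, and Mir1192 is highest in the METTL3 column.

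The share of members called higher for DGCR8 differed between kinds of window. It was 29.7% of the 91 tested windows with 2 or more hairpins and 7.72% of the 881 with 1. It was 18.9% of the 334 windows with a let-7 gene or a microRNA number under 1000 (microRNAs are numbered in the order they were found) and 5.02% of the 638 whose numbers were all 1000 or above. It was 13.9% of 201 windows with the hairpin outside other genes, 8.69% of 771 with it inside one, and 8.21% of 134 with a host transcript alone. For METTL3 the shares of the last 3 kinds were 6.06%, 4.16% and 4.48%.

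Summed over clones, METTL3 was past 2-fold over input in 40 of 1104 members (3.62%, against 4.54% of all windows). The single ratios that follow compare 1 library with another, so they have no test; their 95% intervals are exact binomial and cover counting error only, and past 2-fold is the mark used. DGCR8 after DSG was past 2-fold over input in 144 of 1071 members (13.4%, against 19.1% of all windows). DGCR8 after FA was past it in 37 of 1014 (3.65%, against 10.2%), in the WT precipitate in 62 of 1066 (5.82%, against 8.57%) and at 37 °C in 194 of 1013 (19.2%, against 16.4%). Input level went with these shares. Among windows with input at or under the median, 46.8% of members and 43.0% of all windows were past 2-fold after DSG. Between 2 and 5 times the median input it was 4.68% of members and 0.816% of all windows, and above 5 times 4.21% and 0.463%. So at the input levels most members have, their share was above that of all windows at the same input, although their share over all input levels was below it.

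Drosha was past 2-fold over the untagged input in 92 of 944 members (9.75%, against 15.1% of all windows). The highest were the let-7 cluster at 4.00 (12.7 CPM in the Drosha precipitate and 0.735 CPM in input), Mir148a at 3.01 (30.7 and 3.77 CPM), Mir7224 at 2.95 (2.99 and 0.334 CPM), Mir30c-2 at 2.92 (5.99 and 0.735 CPM) and Mir21a at 2.78 (28.2 and 4.04 CPM). Mir7-1, which lies in the RNA-binding protein gene Hnrnpk, was at 2.62. Input level went with the Drosha share as well. At or under the median input, 59.7% of members and 62.6% of all windows were past 2-fold. Between 1 and 2 times the median input it was 14.9% and 10.6%, and between 2 and 5 times 4.83% and 1.61%. Above 5 times it was 3.38% and 0.666%. Of the 53 members called for DGCR8 across sets that Drosha measured, 32 were past 2-fold, with a median log2 ratio of 1.26. Over all DGCR8-called windows with a Drosha value the share was 63.8% and the median 1.29, so the members stood close to that background. Dicer, which works in the cytoplasm, was past 2-fold in 4 of 1022 members (0.391%, against 0.691% of all windows). Its precipitate held 4.02 CPM at Mir21a, against 4.04 CPM in input, and 3.33 CPM at Mir148a, against 3.77 CPM in input.

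The signal over the neighbouring windows differed between loci. At Mir21a and Mir148a the hairpin's own window was the highest: at Mir21a the WT DGCR8 log2 ratio was 3.22 there, against 1.20 and 0.01 in the windows before and after it. At the let-7 cluster the highest window was the one before it on the chromosome, with 6.13 after DSG, 4.10 in WT and 4.34 for Drosha, against 5.28, 2.57 and 4.00 in the hairpins' window. At the Mir106a cluster the difference was larger: the preceding window had 4.67 after DSG and 5.44 for Drosha, against 2.43 and 2.27 in the hairpins' window. METTL3 was at 1.66 in that preceding window and at -0.18 in the hairpins' window.

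**Figure D2:**
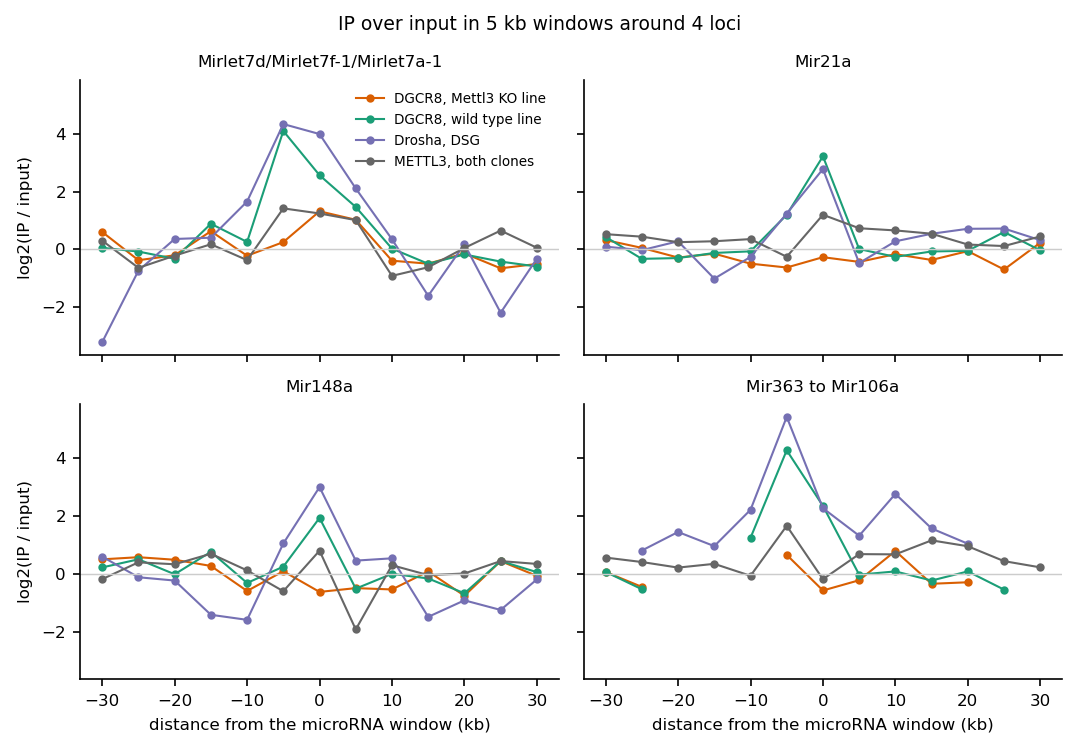
Log2 ratio of precipitate over input (vertical axis) by distance from the microRNA window in kb (horizontal axis) at 4 loci, for DGCR8 without METTL3, DGCR8 in WT cells, Drosha after DSG and METTL3. DGCR8 in WT cells peaks at or 5 kb before the microRNA window, and the line without METTL3 stays near 0 at Mir21a, where it reads -0.27 against 3.22 in WT.

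All 4 factors had a value in 939 members. None was past 2-fold for all 4, as for 0.00259% of all windows. DGCR8 after DSG and Drosha were both past it in 48 members (5.11%, against 4.31% of all windows), with METTL3 as well in 8 (0.852%, against 0.502%) and with METTL3 under 1.5-fold in 22 (2.34%, against 2.54%). Windows past 2-fold for 1 factor with the other 3 under 1.5-fold numbered 9 for METTL3 (0.958%, against 0.952% of all windows), 14 for DGCR8 (1.49%, against 1.84%), 14 for Drosha (1.49%, against 3.85%) and 0 for Dicer (against 0.0116%). The METTL3 ones included Mir882, Mir130c, Mir7042 and Mir6394, those of DGCR8 Mir1971 and the high-input windows of Mir22hg and of Mir191 with Mir425, and those of Drosha Mir7061, Mir683-2 and Mir680-1. Apart from Drosha alone, which was rarer among members, these shares were near those of all windows. None of these shares was matched for input level. Of the members, 84.6% were past 2-fold for none of the 4 (79.3% of all windows).

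After 1 h at 42 °C, no member passed the edgeR test for METTL3 in either direction: 0 of 1109 were higher (0% of all windows) and 0 lower (0.000202% of all windows), with 52 at an unadjusted p under 0.05. The median log2 difference between 42 and 37 °C was -0.19 over the members and 0.01 over all windows. With H4 or H5 as replicate block 4 members were lower and 0 higher, and DESeq2 gave 22 lower and 0 higher. The 4 were Mir3084-2 at -1.45, Mir706 at -1.45, Mir7-1 at -1.19 and Mir7091 at -2.14, with edgeR adjusted p values of 0.00037, 0.017, 0.029 and 0.050 in the blocked fit. Mir7091 held 2.61 and 4.38 CPM at 42 °C, against 13.9 and 14.9 CPM at 37 °C, and Mir1192 held 4.77 and 11.1 CPM, against 19.9 and 30.8 CPM. At both windows each heated precipitate was below both unheated ones. Mir706 lies in Wnk1, a kinase gene, and held 2.68 and 4.25 CPM at 42 °C, against 8.61 and 8.80 CPM at 37 °C. The let-7 cluster held 2.62 and 2.26 CPM at 42 °C, against 4.34 and 3.72 CPM at 37 °C, a log2 difference of -0.82 that did not pass (edgeR unadjusted p 0.0091).

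The 42 °C DGCR8 precipitate was below the 37 °C one at Mir148a, Mir7-1 and Mir7091. It was above the 37 °C one at Mir455 and in Sfmbt2. Each temperature had 1 library. The 42 °C precipitate was past 2-fold lower than the 37 °C one in 174 of 1106 members (15.7%, against 4.15% of all windows) and past 2-fold higher in 102 (9.22%, against 17.5%). Of the windows with small nucleolar RNA genes, 14.9% were lower and 17.4% higher. In windows whose most expressed gene lay in the top RNA quartile (of genes at 1 CPM or more in parental cells), 34.3% of members and 22.3% of all windows were lower. Input level went with the lower share as well. The 37 °C input was above 5 times the median window in 33.4% of members and 6.20% of all windows. There 26.0% of members and 12.8% of all windows were lower. Between 2 and 5 times it was 14.7% and 5.65%, and at or under the median 6.19% and 2.24%. The median log2 ratio was -0.14 over the members and 0.28 over all windows, and with the median of all windows set to 0 the counts were 270 lower and 60 higher. Mir148a held 19.3 CPM at 42 °C, against 177 CPM at 37 °C, at -3.19 (95% interval -3.28 to -3.11). Mir130a at -3.44 and Mir5136 at -3.27 lay lower, both with input above 5 times the median window in the heat set. Mir7-1 held 3.30 CPM, against 24.9 CPM at 37 °C (-2.90), and Mir7091 held 3.66 CPM, against 23.9 CPM (-2.69). Over the 37 °C input the heated precipitate was at 2.43 at Mir148a, 1.34 at Mir7-1 and -0.11 at Mir7091. The cluster of Mir450b, Mir450-1, Mir450-2 and Mir542 was at -2.89 and Mir6965, a high-input window in the cyclin F gene Ccnf, at -2.81. The highest ratios were those of Mir455 at 3.40, where the 37 °C library held 6 counts, of a Mir99ahg window at 3.17, where it held 2 counts, and of the Mir669 and Mir467 cluster in Sfmbt2 at 3.03.

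Without METTL3, DGCR8 was lower at a group of well-known microRNA loci while most members were near their WT level. The knockout precipitate was past 2-fold lower than the WT one in 37 of 1070 members (3.46%, against 1.24% of all windows), at 36 loci, and past 2-fold higher in 3 (0.28%, against 0.555%). The median log2 ratio was -0.03 over the members and 0.00 over all windows. Over the WT input the knockout precipitate was past 2-fold in 7.12% of all windows, against 8.57% for the WT precipitate. In members it was 3.21%, against 5.82%. The knockout precipitate had no input of its own, and how well that pulldown worked was not tested.

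The lowest ratios were those of Mir324, Mir21a, the Mir182 cluster, the Mir106a cluster, Mir200a with Mir429, and Mir148a. Mir21a held 4.36 CPM in METTL3KO cells and 49.5 CPM in WT cells, with 5.26 CPM in the WT input (log2 ratio -3.49, 95% interval -3.82 to -3.20). Mir324, in the acyl-CoA dehydrogenase gene Acadvl, held 3.34 CPM in METTL3KO cells and 39.2 CPM in WT cells, with 4.99 CPM in input (-3.53, interval -3.92 to -3.21). Mir182, Mir96 and Mir183, a cluster known for its part in sensory neurons, held 3.76 CPM in METTL3KO and 36.8 CPM in WT cells, with 6.41 CPM in input (-3.28). The Mir324 and Mir182 windows were high-input windows, as were 9 of the 14 lowest and 16 of the 37 past 2-fold lower.

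The Mir106a cluster held 1.39 CPM in METTL3KO and 10.9 CPM in WT cells, with 2.10 CPM in input (-2.92, interval -3.56 to -2.42). Mir200a with Mir429, microRNAs of epithelial identity, held 3.34 CPM in METTL3KO and 21.5 CPM in WT cells, with 3.74 CPM in input (-2.67). Mir148a held 2.50 CPM in METTL3KO and 15.0 CPM in WT cells, with 3.89 CPM in input (-2.56). Over the 37 lower windows, which the ratio itself chose, the median log2 ratio to the WT input was -0.48 in METTL3KO and 1.14 in WT cells; over all members it was -0.28 in METTL3KO and -0.20 in WT cells.

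**Figure D3:**
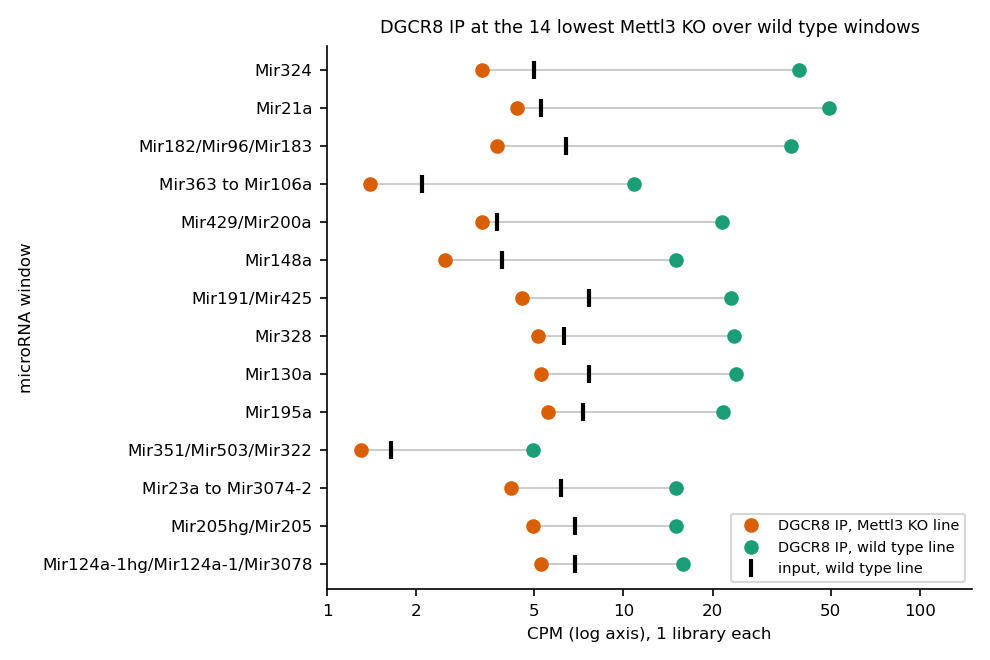
DGCR8 signal in CPM (log axis) at the 14 microRNA windows with the lowest ratio of METTL3KO over WT, for the METTL3KO precipitate, the WT precipitate and the WT input, 1 library each. The METTL3KO point lies left of both others in every row, and at Mir21a it is at 4.36 CPM, against 49.5 CPM in WT.

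Windows just inside the 2-fold mark included Mir301 at -1.02 and Mir674 at -1.03; Mir302a to Mir302d with Mir367, the cluster of early embryonic cells, was just outside at -0.98. The let-7 cluster, the highest for DGCR8 across sets, was not among the lowest: it held 2.74 CPM in METTL3KO and 6.53 CPM in WT cells, with 1.07 CPM in input (-1.24, interval -1.70 to -0.83). It kept a ratio of 1.32 over input without METTL3, against 2.57 in WT. In the window before it, where the WT ratio was higher at 4.10, the METTL3KO ratio was 0.25. Mir7-1 and Mir30c-2, high for DGCR8 in the other sets, were at -0.46 and -0.29.

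The lower windows were unevenly spread over kinds of microRNA window. They made up 32 of 312 windows with a let-7 gene or a number under 1000 (10.3%) and 3 of 626 with all numbers 1000 or above (0.479%). They made up 16 of 83 windows with 2 or more hairpins (19.3%). They were also set apart by DGCR8 in the DSG library, which shares no library with the knockout set: among members past 2-fold after DSG, 29 of 141 (20.6%) were lower in METTL3KO, against 2.25% of all windows past 2-fold after DSG and 2.13% of those in protein-coding genes. Among members at or below input after DSG it was 1 of 557 (0.18%, against 0.582% of all such windows). With input held at or under 5 times the median, 17 of 124 DSG-high members (13.7%) were lower. The share of all windows under that input limit was not computed. The DSG-high classes differed in input: it was at or under the median in 96 of 144 members and in 78885 of 85073 of all windows.

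The heat ratio was read over the same classes. Among DSG-high members 48 of 144 (33.3%) were past 2-fold lower at 42 °C, against 6.34% of all DSG-high windows and 13.4% of those in protein-coding genes, and among members at or below input after DSG 51 of 559 (9.12%, against 2.86% of all such windows). The knockout and heat sets share no library. Of the members measured in both, 37 were lower without METTL3 and 172 lower after heat. Both held for 23, which is 62.2% of the first and 13.4% of the second. Over all windows measured in both, 330 windows were lower in both, 6.07% of those lower without METTL3 and 1.78% of those lower after heat. Neither these overlaps nor the heat shares above were matched for input level. Of the windows lower without METTL3, 9 of 37 members had WT input at or under the median window. Over all windows it was 3514 of 5452.

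**Figure D4:**
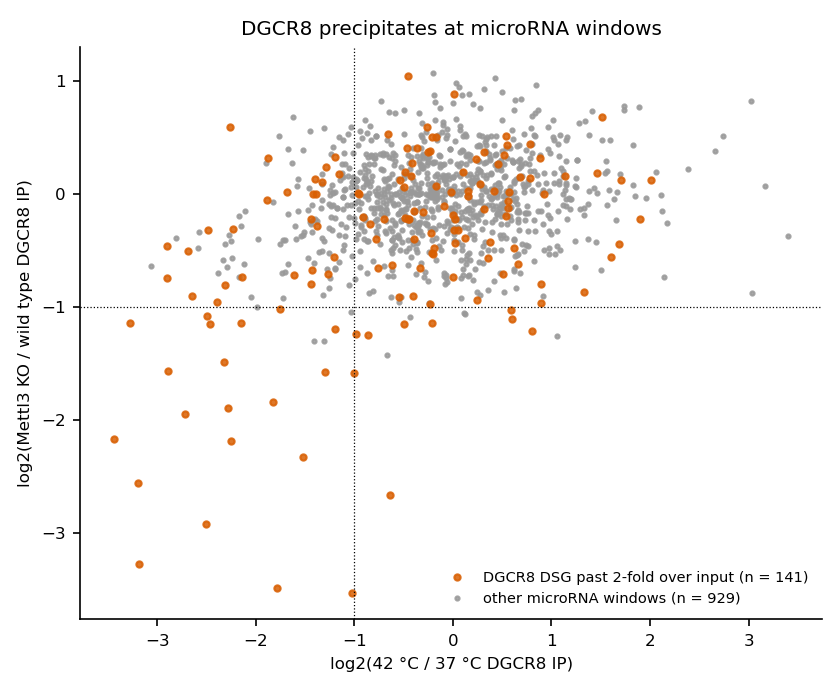
Log2 ratio of DGCR8 at 42 °C over 37 °C (horizontal axis) and in METTL3KO over WT cells (vertical axis), 1 point per microRNA window, with windows past 2-fold for DGCR8 after DSG in orange and the rest in grey; dotted lines mark 2-fold lower. Of the 37 windows under the horizontal line, 23 also lie left of the vertical one, and windows lower after heat spread over the whole height.

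Loci taken whatever their value showed how the families differ. The 8 windows with let-7 genes had a median log2 ratio of 1.00 after DSG (-0.42 to 5.28, 4 past 2-fold) and of 0.13 in WT cells (1 past). Of these, 2 were past 2-fold lower in METTL3KO, and 3 were lower and 2 higher after heat. The 20 windows of the imprinted Dlk1-Dio3 region, whose microRNAs come from the maternal copy of chromosome 12, had a median of -0.78 after DSG (-1.32 to -0.08, 0 past 2-fold; 6 were high-input windows), and 8 were called lower across DGCR8 sets with the edgeR test and 0 higher. Drosha was past 2-fold below input in 12 of these 20. Of all windows with input 2 to 5 times the median, 22.1% were past 2-fold below it for Drosha. It was 9.36% at 1 to 2 times and 36.1% above 5 times. In the Dlk1-Dio3 windows METTL3KO over WT had a median of -0.02 with 0 past 2-fold. The Mir302 cluster had 1.07 after DSG and 1.27 for Drosha, and the fit across DGCR8 sets gave 0.87 (edgeR adjusted p 0.036). The Mir106a cluster was called at 2.42 (edgeR adjusted p 0.017), while the Mir106b cluster, a high-input window in the replication helicase gene Mcm7, was at 1.06 (edgeR adjusted p 0.062). Mir1306 lies within Dgcr8 itself, whose messenger RNA the Microprocessor is known to cut; its window was at 0.61 across DGCR8 sets (edgeR adjusted p 0.19) and at -0.88 in METTL3KO over WT.

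The floxed lines gave a second readout at the same genes. After 4OHT the RNA of 10 microRNA genes rose in the Drosha line at 48 h, led in level by the host transcript Mir22hg, and Mir22hg rose in the DGCR8 line. In such bulk RNA, fewer cells of a type and less RNA per cell cannot be told apart. Drosha RNA was 32.2 and 24.4 CPM in 4OHT cells at 24 h, against 87.9 and 96.8 CPM in control cells, and 25.9 and 27.7 CPM at 48 h, against 118 and 113 CPM. Dgcr8 counts in the DGCR8 line were 254 and 247 CPM in cells labelled 4OHT at 24 h, against 103 and 108 CPM in control cells. These are totals over the gene, so they do not show the floxed stretch, and the deletion in that line was not checked by them.

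In the DGCR8 line 50 microRNA genes of member windows passed the filter on low counts. At 24 h 1 rose (0.107% of all genes did) and 0 fell (0%), and at 48 h 1 rose (1.24%) and 0 fell (0.24%), with the edgeR test; the gene was Mir22hg at both times. It held 16.0 and 18.3 CPM in 4OHT cells at 24 h, against 5.16 and 4.65 CPM in control cells (log2 fold change 1.83 ± 0.27, edgeR adjusted p 0.039). At 48 h it held 13.6 and 12.0 CPM in 4OHT cells, against 5.37 and 2.65 CPM in control cells (1.71 ± 0.28, edgeR adjusted p 0.017). The groups did not overlap at either time. Leaving out any 1 library of the 24 h comparison ended that call, with 0 genes left, as did leaving out either 4OHT library or the second control at 48 h.

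In the Drosha line 100 microRNA genes were tested. At 24 h 3 rose (0.154% of all genes) and 0 fell (0.0307%); at 48 h 10 rose (2.45%) and 2 fell (0.369%). Mir22hg held 23.8 and 30.5 CPM in 4OHT cells at 48 h, against 3.36 and 3.03 CPM in control cells (log2 fold change 3.07 ± 0.19, edgeR adjusted p 6.67e-07). Its 24 h values were 26.9 and 23.9 CPM in 4OHT cells and 3.73 and 3.20 CPM in control cells (2.89 ± 0.19, edgeR adjusted p 1.96e-06). Every 4OHT library was far above every control. The Mir106a cluster moved with it: Mir106a held 0.952 and 1.02 CPM in 4OHT cells at 48 h and 0 and 0.202 CPM in control cells, and Mir92-2 held 1.35 and 2.51 CPM in 4OHT cells and 0.409 and 0.202 CPM in control cells. Mir20b held 1.43 and 2.05 CPM in 4OHT cells and had no count in either control library.

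Mir127 held 4.44 and 2.89 CPM in 4OHT cells at 48 h and 0.164 and 0.101 CPM in control cells (4.65 ± 0.55, edgeR adjusted p 0.00059). It overlaps Rtl1 on the other strand, and the strand of counting was not stated, so its reads and those of Rtl1 cannot be told apart. Mir1306 shares its bases with Dgcr8, which rose as well, and held 3.96 and 5.03 CPM in 4OHT cells, against 0.983 and 1.01 CPM in control cells. Mir669c, Mir669m-1, Mir467c and Mir466p rose too. They lie in a cluster of repeated microRNA genes inside Sfmbt2. How the authors' counting treated reads that match more than 1 copy was not checked. The 2 that fell were Mirlet7a-1, with 0.714 and 1.30 CPM in 4OHT cells and 2.95 and 6.66 CPM in control cells (-2.25 ± 0.47, edgeR adjusted p 0.020), and Mir5114 in the desaturase gene Scd2, with 9.04 and 8.84 CPM in 4OHT cells and 13.4 and 14.5 CPM in control cells (-0.65 ± 0.16, edgeR adjusted p 0.050). Without the first 48 h control library 2 genes rose and 1 fell, without the second 5 rose and 0 fell, and without the first 4OHT library 0 fell. At 24 h 1 gene rose without either control. Ribosome-depleted total RNA holds primary transcripts and hairpin stretches rather than mature microRNAs, so these values are not levels of mature microRNAs.

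**Figure D5:**
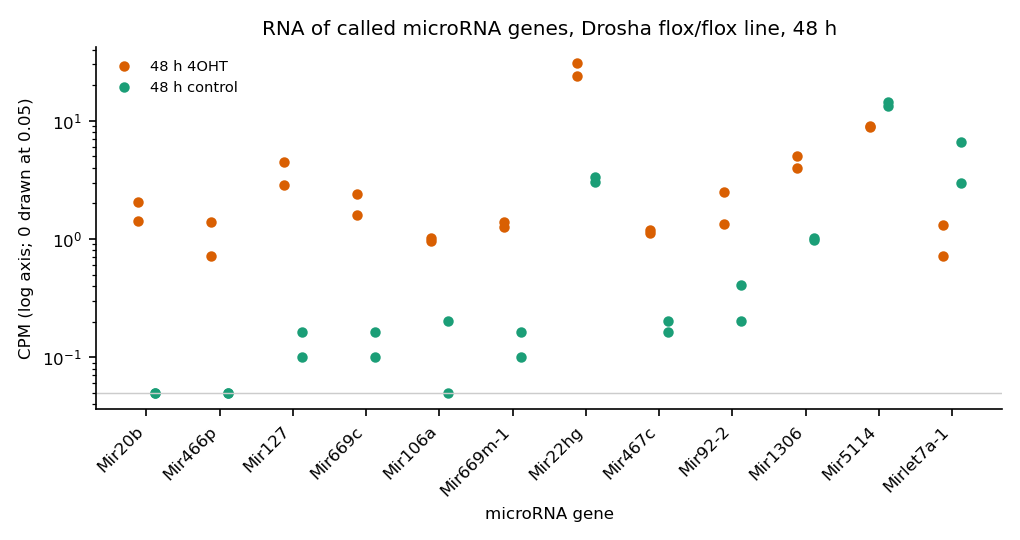
RNA level in CPM (log axis, with values of 0 drawn at 0.05) of the 12 microRNA genes called at 48 h in the Drosha floxed line, with the 2 libraries of 4OHT cells and the 2 of control cells as points. Mir22hg is at 23.8 and 30.5 CPM in 4OHT cells, against 3.36 and 3.03 CPM in control cells, and Mirlet7a-1 and Mir5114 are the 2 that lie lower in 4OHT cells.

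The Drosha RNA readout can be set beside the DGCR8 ChIP. Of 28 tested genes in windows called for DGCR8, 7 rose and 1 fell at 48 h, with a median log2 fold change of 0.84; of 72 in other member windows, 3 rose and 1 fell, with a median of 0.43. Over all genes the median was 0.00. At 24 h the medians were 0.50 and 0.38. Genes of a shared window or cluster were counted separately, so the counts at 48 h are not counts of separate loci. Of the 7 that rose, 3 belong to the Mir106a cluster and share 1 window. The rest came from among Mir22hg and the repeated microRNA genes in Sfmbt2. The contrast between called and other windows was not tested by locus. In the DGCR8 line, of 13 genes in windows called for DGCR8, 0 rose and 0 fell at either time, with medians of -0.62 at 24 h and -0.06 at 48 h, and the 37 others had medians of -0.06 and 0.04; the difference between the lines was not tested. The summed level of all 1040 hairpin genes was 224 and 210 CPM in Drosha 4OHT cells at 48 h, against 163 and 180 CPM in control cells, and 152 and 137 CPM in DGCR8 4OHT cells, against 147 and 148 CPM. The Drosha groups did not overlap, and the DGCR8 groups did.

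Of 30 genes of the pathway (Microprocessor, Dicer and Argonaute partners, hairpin-binding proteins and the m6A writer), 29 were tested for RNA. In the Drosha line at 48 h 4 rose (2.45% of all genes did): Dgcr8 at 1.86, Ago1 at 0.87 and Tnrc6a at 0.95, which act in silencing, and Tnrc6b at 0.72. Drosha alone fell, by 2.12 (0.369% of all genes fell). In the DGCR8 line at 48 h Dgcr8 (0.95), Ago1 (1.05) and Tnrc6a (1.06) rose, against 1.24% of all genes, and 0 fell. For ChIP, counts were summed over the windows of each gene. The median log2 ratio over the 30 genes was 0.55 for DGCR8 after DSG, 0.35 for Drosha, 0.04 for METTL3 and -0.02 for Dicer. The medians of all windows in genes of the top RNA quartile were 0.44, 0.13, 0.34 and -0.04 in that order. These and the bracketed medians that follow are over single windows rather than genes, so the units differ. DGCR8 at 42 °C over 37 °C had a median of -0.85 (0.28 over all windows and -0.53 over those of the top RNA quartile), and METTL3KO over WT of -0.06 with 0 genes past 2-fold (0.00 and -0.05). At Hnrnpa2b1, which encodes a reader of m6A in primary microRNAs, DGCR8 was at 2.14 after DSG and at -2.35 at 42 °C over 37 °C.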

How the data were processed

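The authors deposited read counts per 5 kb window for ChIP and read counts per gene for RNA (whole numbers, not rescaled); the aligner was Bowtie and the build mm10, as the submitters' processing notes list them, and the aligner's version, the counting strand and the annotation are not given in the sources used here. Ribosomal RNA was removed before RNA libraries were made, per the labels' protocols. Window counts of chromosomes 1 to 19 and X were used, and gene spans came from a RefSeq gene table (GRCm38.p6); 37607 of 39017 gene IDs had a symbol. Titles and column names were followed where source names differ from them (METTL3, heat and floxed RNA sets), and 1 DGCR8 column was taken as the FA precipitate by elimination. Genes passing filterByExpr, and windows that averaged 10 counts or more per library, went into quasi-likelihood fits of edgeR 4.0.16 (R 4.3.3, TMM, Benjamini-Hochberg over all windows or genes, threshold 0.05); groups of a floxed line shared 1 fit, and the METTL3 heat libraries that share the name H4 or H5 deviated together (correlation 0.32 between precipitates, 0.31 between precipitates and inputs); the name was taken as a line that pairs them, which the labels do not state. Ratios are log2 of CPM after adding 1 count at the depth of the smaller library, where the pair held 50 counts or more. The fits were tested on simulated counts. DESeq2 1.42.0 and the other alternatives are given at the end. Windows were named by fixed numbers of highest and lowest ratios per comparison among windows whose input did not exceed 5 median windows, plus the let-7, Dlk1-Dio3, Mir302, Mir106a, Mir106b and Mir1306 windows and every called microRNA gene; windows above that input and all others named were chosen after their values were seen. The members and lists were chosen with earlier results of these data known. Of 1165 hairpin genes in the windows, 1012 had a mature sequence in RefSeq.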

Additional observations from a re-analysis of the deposited data

Results flagged for a closer look

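The 96 h libraries of the floxed lines were in no comparison above, and they were read for the 12 microRNA genes called at 24 or 48 h. A gene was counted when every 4OHT library lay above both controls and held more than 3 counts. In the DGCR8 line 4 of the 12 met this: Mir1306, Mir20b, Mir22hg and Mir92-2. Mir106a and Mir669c also lay above both controls there, but with 3 counts or fewer in a 4OHT library. Mir22hg held 11.6 and 12.4 CPM in 4OHT cells, against 4.37 and 4.09 CPM in control cells. In the Drosha line, with 1 4OHT library at 96 h, 10 of the 12 lay above both controls; Mir5114 and Mirlet7a-1, which fell at 48 h, did not. Mir22hg held 29.1 CPM in that library, against 4.35 and 5.38 CPM in control cells, and Mirlet7a-1 held 1.72 CPM, against 7.34 and 4.45 CPM. These differences were not tested, and the share of all genes above both controls was not computed. The 12 genes were chosen by their calls at 24 or 48 h in the same lines, so these counts are description only.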

How the results depend on the processing

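Counts of member windows and genes were recomputed under other settings, and these differed by over 1.5 times. For METTL3 over input, higher calls were 148 with library totals and 25 with DESeq2, and lower calls 149 with high-input windows left out (91 in the heat set at 37 °C). METTL3 lower at 42 °C gave 22 with DESeq2 and 4 with the replicate block (H4 or H5). DGCR8 across sets gave 0 higher and 0 lower without the set block, 172 lower with library totals, and 133 lower without high-input windows. Ratios centred on the median of all windows gave 86 for DGCR8 after DSG, 20 after FA, and 60 higher and 270 lower at 42 °C; leaving out high-input windows gave 77 lower at 42 °C. A mark of 1.5-fold gave 269 (DSG), 115 (FA), 131 (WT), 159 (Drosha), 22 (Dicer), 222 higher and 330 lower at 42 °C, and 51 higher and 136 lower in METTL3KO. A minimum of 20 counts gave 63 for FA, 146 for Drosha and 8 for Dicer. Dicer gave 0 with a pseudocount of 5, 2 without host-transcript windows and 7 over the DGCR8 input, and METTL3KO 0 higher with a pseudocount of 5. At 1.5-fold the shared classes became 90 for DGCR8 with Drosha, 49 of these without and 41 with METTL3, 1 for all 4, and for 1 factor alone 57 (METTL3), 60 (DGCR8), 40 (Drosha) and 1 (Dicer). Centred, DGCR8, Drosha and METTL3 together gave 3, METTL3 alone 3 and Drosha alone 25, and DGCR8 alone, taken from the fit across sets, gave 4.

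For RNA, DESeq2 gave 2 genes that rose in the DGCR8 line at 24 h and 2 at 48 h, and in the Drosha line at 48 h 6 that rose and 1 that fell. A filter of at least 1 count gave 3 that rose and 1 that fell, 2 that rose, 13 that rose and 3 that fell, and 23 that rose, in the order DGCR8 24 h, DGCR8 48 h, Drosha 24 h, Drosha 48 h. Fits on the 4 libraries of a comparison alone gave 2 that rose in the DGCR8 line at 48 h, 11 that rose and 3 that fell in the Drosha line at 24 h, and 5 and 0 at 48 h. Same-numbered RNA libraries did not deviate together in all comparisons (correlations of -0.48, 0.36, -0.06 and -0.18), so the number was not taken to pair them; with the replicate block 9 genes rose and 1 fell in the Drosha line at 48 h, and the counts of the other 3 comparisons stayed the same. A block with crossed numbers, chosen after seeing the data, gave 0 that rose in the DGCR8 line at 24 h and 1 that fell in the Drosha line at 48 h.

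Leaving out 1 library gave 20 to 52 higher and 334 to 431 lower for METTL3, 63 to 165 and 93 to 583 in the heat set, 0 for METTL3 after heat, and 0 to 116 and 0 to 304 for DGCR8 across sets. For RNA it gave 0 genes that rose (DGCR8 24 h), 0 to 1 (DGCR8 48 h), 1 to 2 (Drosha 24 h), and 2 to 10 that rose with 0 to 2 that fell (Drosha 48 h). The METTL3 value of Mir882 in the heat set ran from -0.99 to 0.0166 (0.011 without the H5 input). The cause of these differences was not tested. Of the other recomputed counts, 127 stayed within 1.5 times. Low depth limits the Drosha ratios, whose precipitate was the shallowest of the DSG libraries, and RNA values under about 1 CPM.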
